A study of Rattus norvegicus with 8 samples.

Results

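The postsynaptic scaffold genes examined here are Dlg1, Dlg2, Dlg3, Dlg4, Shank1, Shank2, Shank3, Homer2, Homer3 and Dlgap1. They were taken by name from the non-control spots of the arrays, where all 10 were found among 35199 gene names, on 12 probes and 21 of 43379 spots. RNA came from the dentate gyrus (DG) of adult female Sprague-Dawley rats that had all been ovariectomized (OVX) and had all undergone status epilepticus (SE), a seizure that does not stop by itself, induced with kainic acid. Per the sample records, kainic acid was given at 16 mg/kg and SE was ended with pentobarbital after 5 h. The COS group (4 rats) received oil, and the CES group (4 rats) received estradiol (E2, coded EB in the records) in 4 doses of 2 μg at 24 h intervals, before and after SE. The paper describes another dose of kainic acid, another drug to end SE and all E2 doses before it, and nothing in the data tells these accounts apart. Rats without SE were not analysed here, so the values compare seizured rats with and without E2. Whether a difference depends on SE, or would also be present between rats without SE, cannot be told from them.

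The postsynaptic density is the protein layer under the membrane of an excitatory synapse, in which glutamate receptors are held in place. The DLG proteins (SAP97, PSD-93, SAP102 and PSD-95 for Dlg1 to Dlg4) bind receptor tails and adhesion molecules through their PDZ domains, and the guanylate kinase-like domain at their end binds the SAPAP protein made by Dlgap1. SAPAP binds the SHANK proteins, which form the deeper layer of the density, and HOMER proteins link SHANK to group I metabotropic glutamate receptors and to calcium stores of the endoplasmic reticulum. In the DG such densities are found, among other places, in the spines of granule cells, where the perforant path ends. The arrays do not show which cells the RNA came from.

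Each rat was 1 channel of a 2-colour array, and each of 4 arrays held 2 rats of the same group, labeled with Cy3 and Cy5. A level is the log2 of the signal above local background over the median of the valid spots of its channel, so a level of 0 is that of the median valid spot, and a difference is CES minus COS on the same log2 scale. The scale is set separately for each probe by its hybridization, so levels of different genes are not ranked against each other. Of all non-control spots, 74.6% to 88.9% were valid in a COS rat and 70.7% to 81.5% in a CES rat. No member spot was saturated. A value that the scanner software marked as an outlier was left out, which removed the level of Shank3 in COS replicate 1, the level of Dlgap1 in CES replicate 4 and 1 of the repeated spots of Dlg4.

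The probes are 60 bases long, and the printed ones show how alike some probes of the DLG genes are and what the lower Homer3, Dlg1 and Shank2 values were read from. Probes were compared only with each other and not with the transcripts of the other genes. Whether a probe also reads a related gene was therefore not tested. The probes for Dlg2, Dlg3 and the single-spot probe of Dlg4 lie in the same stretch of the guanylate kinase-like region, and capitals mark the bases that are identical in all of them within a shared window of 48 bases.
Dlg2: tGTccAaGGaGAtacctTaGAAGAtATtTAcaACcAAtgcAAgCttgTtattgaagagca
Dlg3: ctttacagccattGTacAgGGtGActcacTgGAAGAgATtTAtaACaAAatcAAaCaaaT
Dlg4: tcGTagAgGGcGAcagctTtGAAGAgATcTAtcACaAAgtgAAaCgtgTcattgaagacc
In that window 25 of 48 bases were shared by all 3 probes. Pair by pair, 34 of 49 overlapping bases were identical between Dlg3 and Dlg4, 39 of 59 between Dlg2 and Dlg4, and 31 of 48 between Dlg2 and Dlg3. No other pair among the 66 pairs of member probes reached more than 45.6% identity without gaps. The probes of Dlg1 and Homer3 and the lower of the Shank2 probes have no such counterpart among the member probes, and no base of theirs is capitalized. This does not show that their genes differ from related genes at that place.
Dlg1: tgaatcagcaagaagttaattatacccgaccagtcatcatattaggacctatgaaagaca
Homer3: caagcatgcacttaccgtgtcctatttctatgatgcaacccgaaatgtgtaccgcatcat
Shank2: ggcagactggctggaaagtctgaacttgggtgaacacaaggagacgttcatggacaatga
In rn4, the build of the files, the 60 bases of the Dlg1 probe spread over chr11:70749687-70750611 on the minus strand, a span of 925 bases, so the probe crosses at least 1 intron. The Dlg3 probe likewise spans 1061 bases at chrX:88826536-88827596 on the plus strand. The Homer3 probe is at chr16:19624630-19624689 on the minus strand, near the start of its transcript (base 148), and the Shank2 probe shown is at chr1:204851929-204851988 on the plus strand.

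CES was compared with COS to ask whether E2 replacement changed the scaffold genes in seizured OVX rats. Shank3, which codes for the scaffold at the base of the density, was higher in CES than in COS, while Dlg1, which codes for SAP97, a carrier of AMPA-type receptors, and Homer3, which codes for a HOMER protein that joins SHANK to metabotropic receptors, were lower. Shank3 was 1.75-fold higher, Dlg1 1.53-fold lower and Homer3 1.61-fold lower. The other members, Dlg2, Dlg3, Dlg4, Shank1, Shank2, Homer2 and Dlgap1, did not pass the test. All 10 members were quantified in at least 3 rats of each group, and by limma (Benjamini-Hochberg over all 21067 genes, threshold 0.05) 1 of 10 was called higher and 2 of 10 were called lower, against 5.73% higher and 28.4% lower among all genes. For 10 genes these counts are near those shares. Over 24 alternatives in processing, model and rats used, Shank3 was called in 18 and Dlg1 and Homer3 in 11 each. In a tissue dissection, fewer cells of a type and less RNA per cell cannot be told apart.

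**Figure D1:**
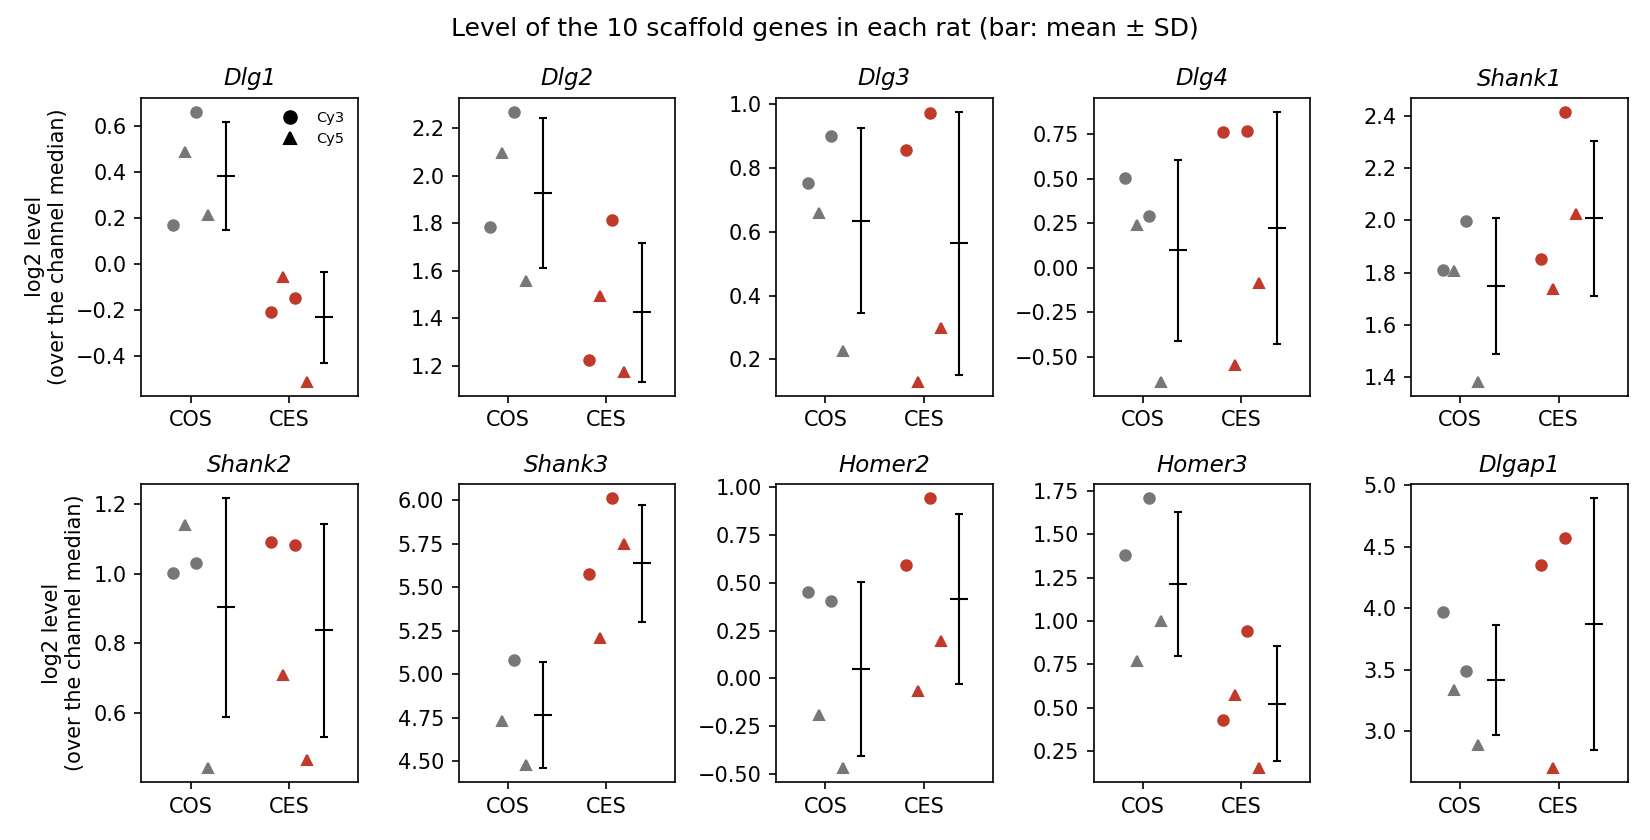
Level of each member in each rat (y axis: log2 of the signal over the median of the valid spots of the channel; circles: Cy3 rats, triangles: Cy5 rats; bars: mean ± SD). The CES values of Shank3 lie above, and those of Dlg1 below, all COS values shown, and in every other panel the groups overlap.

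The median difference over all genes was −0.25, and it depended on how the channels were scaled. With each channel scaled on the spots that were valid in every rat (common-spot scaling), it was 0.15, and the 1207 genes called higher and 5982 called lower became 3286 and 1700. The members' own median difference was 0.03, which is 0.29 above the median of all genes. Set against that all-gene median, 7 members stood above and 3 below, the latter being Dlg1, Dlg2 and Homer3. Each of the 10 stayed on its side under all 24 alternatives tried, but not all of these could move a member. Changes of model terms left most differences as they were, and common-spot scaling moved the members and all genes nearly alike.

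Among the SHANK genes, the Shank3 level was 4.73, 5.08 and 4.48 in COS replicates 2 to 4 and 5.58, 5.21, 6.01 and 5.75 in CES replicates 1 to 4. All CES rats lay above the 3 COS rats, a separation in this direction that 1.60% of all genes showed. The difference was 0.81 (SE 0.22, 95% interval 0.32 to 1.30, n = 3 and 4 rats, limma adjusted p = 0.0205). With the outlier mark of COS replicate 1 ignored, its level of 4.41 was the lowest of all, and the difference was 0.96 (limma adjusted p = 0.00987). The probe, at chr7:127877604-127877663 on the plus strand of rn4, was far above background, with a foreground between 123 and 685 times the local background. The difference of Shank3 was larger than that of 96.7% of all genes and lay 1.07 above their median, with a range over the alternatives from 0.85 to 1.27. The call was lost without COS replicate 3 (limma adjusted p = 0.0873) and without COS replicate 4 (limma adjusted p = 0.0628).

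Shank1 codes for another SHANK scaffold. Its level was 1.81, 1.80, 2.00 and 1.38 in the COS rats and 1.85, 1.74, 2.42 and 2.02 in the CES rats. The groups overlapped, with the highest level in a CES rat and the lowest in a COS rat. The difference was 0.26 (SE 0.19, 95% interval −0.16 to 0.68, limma adjusted p = 0.314). With common-spot scaling the difference became 0.66 and passed the test (limma adjusted p = 0.0283), and from the processed signal that the software also writes it was −0.06 (limma adjusted p = 0.854).

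Shank2 was read by 2 probes that differed and that are assigned to different transcript records. Averaged over both, its level was 1.00, 1.14, 1.03 and 0.44 in the COS rats and 1.09, 0.71, 1.08 and 0.47 in the CES rats, with a difference of −0.07 (SE 0.19, limma adjusted p = 0.811). The brighter probe (A_44_P299282, chr1:204854911-204854970, base 7614 of its transcript) had levels of 1.77, 1.84, 1.62 and 1.18 in COS and 1.96, 1.54, 1.90 and 1.38 in CES, a difference of 0.10 (SE 0.19, limma over all probes, adjusted p = 0.718). The dimmer probe (A_44_P247745, base 5445 of the other record, printed above) had levels of −0.72, −0.28, 0.03 and −1.13 in COS and −1.47, −1.50, −0.95 and −2.70 in CES. For it the CES rats were lower, with overlap between COS replicate 4 and CES replicate 3 only, and the difference was −1.13 (SE 0.32, limma over all probes, adjusted p = 0.0225). Over all 25285 probes, 29.2% were called lower and 5.46% higher.

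The gap between the Shank2 probes can be compared within a rat, where the scaling of the channel cancels. The dimmer minus the brighter probe gave −2.49, −2.13, −1.58 and −2.31 in COS and −3.43, −3.04, −2.85 and −4.09 in CES. No CES rat reached the COS range, and the gap was wider in CES by 1.22 on average (CES minus COS −1.22). This comparison was chosen after the values of the probes were seen and is given as a description, with no test. The dimmer probe was well above background in all 4 COS rats and in 2 of 4 CES rats, with a foreground as low as 2.92 times background, and the part of the low signal in the gap was not tested. Its call was lost without COS replicate 2, 3 or 4 or CES replicate 1 (limma adjusted p = 0.0649, 0.143, 0.0534 and 0.0946). Over all 20 alternatives that gave a value it was called in 9, with differences from −1.65 to −0.57 and limma adjusted p up to 0.498, and with common-spot scaling the difference was −0.73 (limma adjusted p = 0.163).

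**Figure D2:**
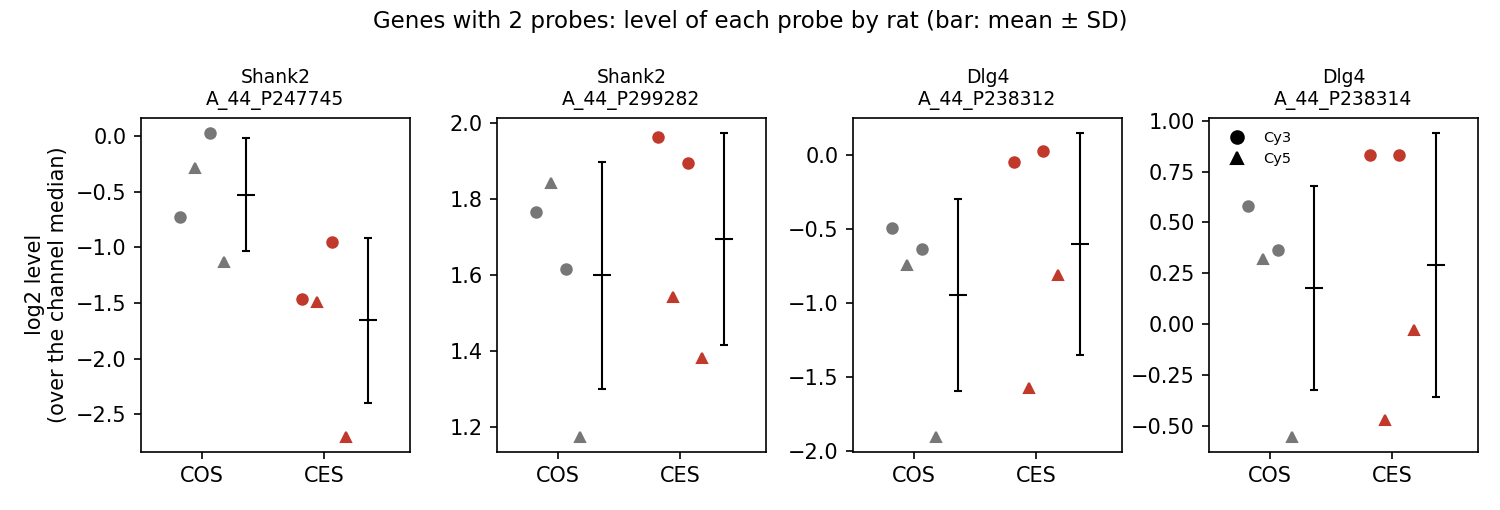
Levels of the 2 probes of Shank2 and of Dlg4 in each rat (y axes: log2 of the signal over the median of the valid spots of the channel, on separate scales; circles: Cy3, triangles: Cy5; bars: mean ± SD). The Shank2 probes differ between groups by −1.13 and 0.10, and the Dlg4 probes by 0.34 and 0.12.

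Among the DLG genes, the Dlg1 level was 0.17, 0.49, 0.66 and 0.21 in COS replicates 1 to 4 and −0.21, −0.05, −0.15 and −0.51 in CES replicates 1 to 4. All CES rats lay below all COS rats, which 19.8% of all genes did. The difference was −0.61 (SE 0.18, 95% interval −1.02 to −0.21, n = 4 and 4 rats, limma adjusted p = 0.028). It lay 0.36 below the all-gene median (−0.36), and 26.3% of genes had a difference as low or lower. With common-spot scaling the difference of Dlg1 was −0.21 and did not pass (limma adjusted p = 0.312). Nor did it pass without COS replicate 2, 3 or 4 or CES replicate 1 (limma adjusted p = 0.0767, 0.142, 0.0545 and 0.092).

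Dlg2 codes for PSD-93, a close relative of PSD-95. Its level was 1.79, 2.09, 2.27 and 1.56 in COS and 1.22, 1.49, 1.81 and 1.17 in CES. CES replicate 3 alone lay within the COS range. The difference was −0.50 (SE 0.21, 95% interval −0.97 to −0.03) and did not pass after adjustment (limma adjusted p = 0.0897, unadjusted p = 0.0379). Without CES replicate 3 it was −0.60 and passed (limma adjusted p = 0.0243), which was the lowest adjusted p among the alternatives. With common-spot scaling the difference of Dlg2 was −0.10. Over all 24 alternatives it was called in 4, with differences from −0.69 to −0.05 and adjusted p up to 0.908.

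Dlg3 codes for SAP102, the DLG protein of early synapses. Its level was 0.75, 0.66, 0.90 and 0.22 in COS and 0.86, 0.13, 0.97 and 0.30 in CES, and in each group the rats labeled with Cy5 were lower than those labeled with Cy3. The difference was −0.07 (SE 0.17, 95% interval −0.45 to 0.31, limma adjusted p = 0.777), and its sign changed with the processing. Over all alternatives it lay between −0.14 and 0.38 and was never called.

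Dlg4 codes for PSD-95, the most abundant scaffold of excitatory synapses. Its level was 0.50, 0.24, 0.29 and −0.64 in COS and 0.76, −0.55, 0.77 and −0.09 in CES. The groups overlapped, and in each group the Cy5 rats were both lower than the Cy3 rats. The difference was 0.13 (SE 0.23, 95% interval −0.38 to 0.64, limma adjusted p = 0.695). One of its probes (A_44_P238314, chr10:56888857-56889393) was printed 10 times on each array, of which 9 spots were used, and the SD of these repeated spots within a rat ran from 0.16 to 0.29. The SD between rats, which also holds the dye difference, was 0.51 in COS and 0.65 in CES. The other probe (A_44_P238312, chr10:56889685-56889744) gave a difference of 0.34 (SE 0.27, limma over all probes, adjusted p = 0.349).

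**Figure D3:**
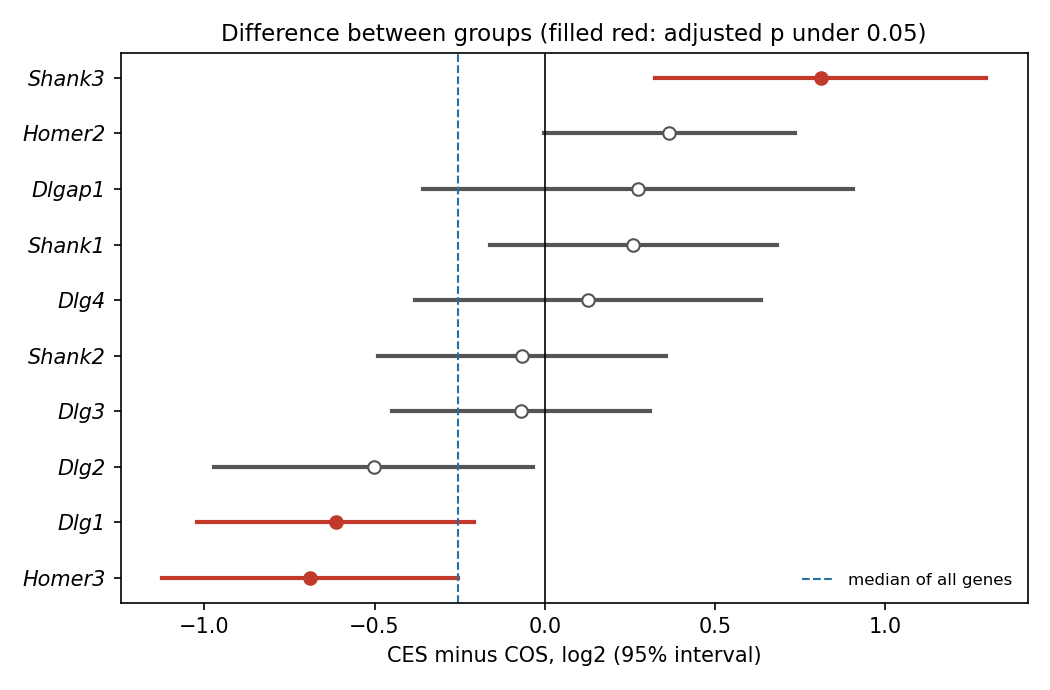
Difference of each member (x axis: CES minus COS, log2, with the 95% interval from limma; solid line: 0; dashed line: the median of all genes, −0.25). Filled red points are the 3 members that passed, Shank3 at 0.81, Dlg1 at −0.61 and Homer3 at −0.69, and only the intervals of Shank3, Dlg1, Dlg2 and Homer3 leave out 0.

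Of the HOMER genes, Homer3 had levels of 1.38, 0.77, 1.71 and 1.00 in COS and 0.43, 0.57, 0.94 and 0.15 in CES. CES replicate 3 lay above COS replicate 2, so the groups overlapped, while the other CES rats were below all COS rats. The difference was −0.69 (SE 0.20, 95% interval −1.12 to −0.26, n = 4 and 4 rats, limma adjusted p = 0.0231), the lowest among the members, and −0.44 when set against the all-gene median. With common-spot scaling it was −0.29 and did not pass (limma adjusted p = 0.262). It also failed without COS replicate 1, 3 or 4 or CES replicate 1 (limma adjusted p = 0.062, 0.127, 0.0689 and 0.0901).

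Homer2 codes for a long HOMER protein with the same binding domain. Its level was 0.45, −0.19, 0.41 and −0.47 in COS and 0.59, −0.07, 0.94 and 0.20 in CES. Within each dye both CES rats were higher than both COS rats, while the pooled groups overlapped. The difference was 0.37 (SE 0.17, 95% interval −0.00165 to 0.73) and did not pass (limma adjusted p = 0.112). With common-spot scaling it was 0.77 and passed (limma adjusted p = 0.0201). Homer2 and Homer3 thus stood on opposite sides of the median of all genes, at 0.62 and −0.44 relative to it, and the difference between the 2 genes was not tested.

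Dlgap1 codes for SAPAP1, the bridge from the DLG to the SHANK proteins. Its level was 3.97, 3.34, 3.49 and 2.89 in COS and 4.35, 2.70 and 4.57 in CES replicates 1 to 3. CES replicate 2, labeled with Cy5, was the lowest and the Cy3 rats of CES were the highest, so the CES rats spanned all COS rats. The SD of the CES rats, 1.02, was larger than that of 95.5% of all genes. The difference was 0.27 (SE 0.28, 95% interval −0.36 to 0.91, n = 4 and 3 rats, limma adjusted p = 0.478). With the marked level of 3.89 in CES replicate 4 included, it was 0.46 (limma adjusted p = 0.221). The difference was 0.73 without CES replicate 2, 0.077 without COS replicate 3, 0.11 without CES replicate 3 and 0.43 without COS replicate 2, and was called in none of these.

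**Figure D4:**
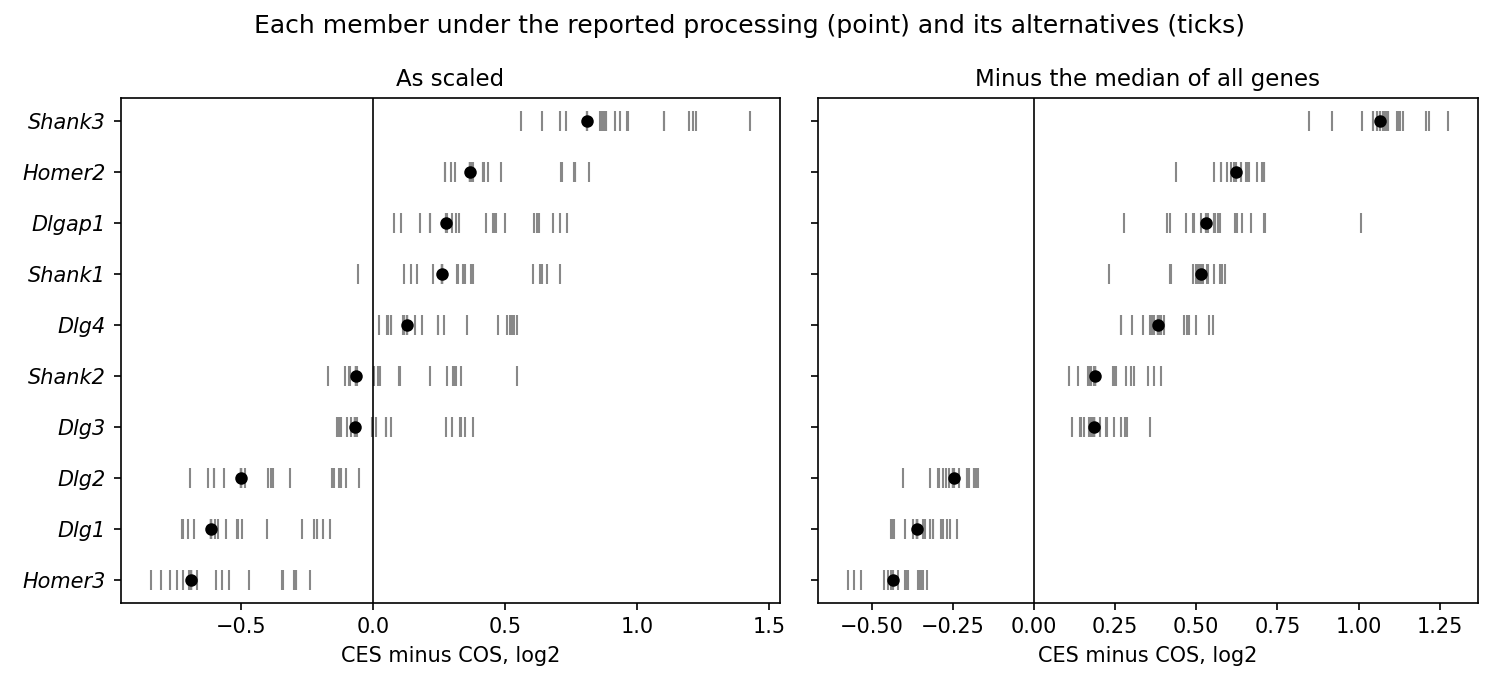
Difference of each member (x axes: CES minus COS, log2) under the reported processing (points) and under each alternative (ticks), as scaled at left and minus the median of all genes at right. At right Dlg1, Dlg2 and Homer3 stay below 0 and the other members above 0 in every case, from −0.57 for Homer3 to 1.27 for Shank3.

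Genes whose products bind the scaffolds were counted in the same fit, in which 5.73% of all genes were called higher and 28.4% lower. Of the partners of the scaffolds in the postsynaptic density, 20 of 24 were quantified, 1 was called higher and none lower, with a median difference of 0.13. With common-spot scaling 8 were called higher and none lower. The called gene was Baiap2, which codes for IRSp53, an actin regulator that binds SHANK and PSD-95 (difference 0.70, SE 0.18, limma adjusted p = 0.0154, all CES rats above all COS rats). Among 14 quantified of 17 other PDZ and MAGUK scaffolds, 2 were called higher and 3 lower, which became 4 and 0 with common-spot scaling. Those higher were Akap5, the anchor of protein kinase A that binds PSD-95 (difference 1.19, limma adjusted p = 0.0179), and Caskin1, a binder of CASK (difference 1.02, limma adjusted p = 0.00525). Those lower were Grip1 and Pick1, which bind the tails of AMPA-type receptor subunits, and Lin7c, a small PDZ protein in the complex with CASK, at differences of −0.76, −0.51 and −0.54 (limma adjusted p = 0.0127, 0.0367 and 0.0336). Pick1 and Lin7c were each called in 9 of 24 alternatives.

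The adhesion molecules of the synapse had the most calls among these lists, with 6 of 15 quantified genes higher and 1 lower and a median difference of 0.35. Among those called higher were Ptprd, a receptor phosphatase of the presynaptic side (difference 1.10, limma adjusted p = 0.00741), and Lrrc4, a PSD-95-binding protein with leucine-rich repeats (difference 0.83, limma adjusted p = 0.00646). Lrrtm3, another leucine-rich repeat protein, was lower (difference −0.48, limma adjusted p = 0.0316).

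Of 9 quantified genes listed for HOMER binding, mostly receptors and channels but also Homer1 itself (difference −0.07, not called), 3 were called higher and none lower. Among them were Grm5, a metabotropic glutamate receptor, and Itpr1, a calcium channel of the endoplasmic reticulum, with differences of 0.91 and 0.96 (limma adjusted p = 0.0224 and 0.0109). For both of these CES replicate 2 lay within the COS range and the other CES rats lay above it. Of 9 quantified NMDA receptor subunits and TARPs, Grin2a and Grin2c were higher by 1.24 and 1.21 (limma adjusted p = 0.00611 and 0.0039), all CES rats above all COS rats, and none was called lower. Of 7 genes of the inhibitory postsynaptic scaffold, none was called higher, and Rdx and Gabarap, an anchor and a trafficking factor of GABA receptors, were lower, at differences of −0.93 and −0.65 (limma adjusted p = 0.0103 and 0.0148). The 2 lower of 7 are close to the share of all genes, and with common-spot scaling 2 genes of this list were called higher and 0 lower, so the direction of its calls turned. Each of these named genes except Homer1 kept its direction under every alternative that gave a value for it, as scaled, although the calls did not all hold. The counts depended on the scaling. Over the alternatives, genes called higher ran from 0 to 9 for the partners in the density, 0 to 4 for other scaffolds, 0 to 8 for adhesion, 0 to 5 for HOMER binding, 0 to 6 for NMDA receptors and TARPs and 0 to 2 for the inhibitory scaffold. With common-spot scaling none of these lists had a gene called lower.

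**Figure D5:**
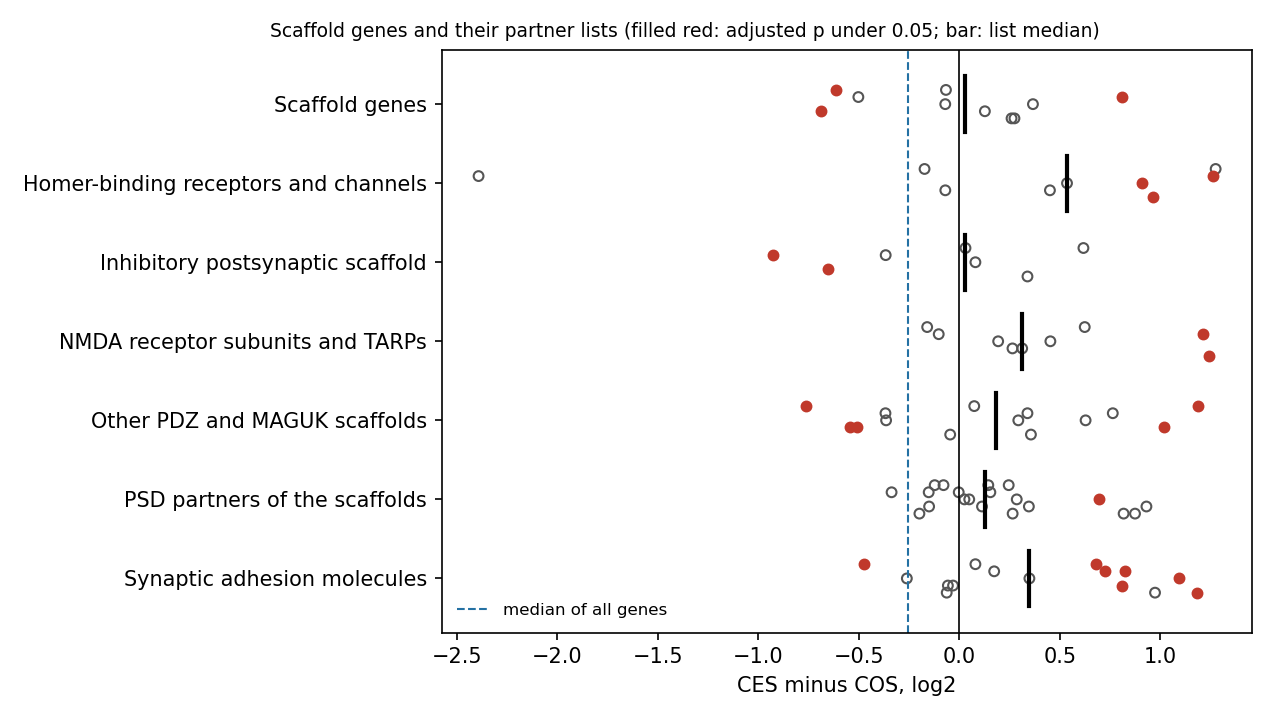
Difference of each scaffold gene and of each quantified partner gene (x axis: CES minus COS, log2; rows: lists; filled red: limma adjusted p under 0.05; black bars: list medians; dashed line: the median of all genes). The list medians run from 0.03 for the scaffold genes and the inhibitory scaffold to 0.54 for the HOMER-binding genes, all to the right of the dashed line at −0.25.

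Other cell types were followed through marker genes in the same fit, in which 5.73% of all genes were called higher and 28.4% lower. Prox1, the defining marker of granule cells, was not well above background in any rat, and the other 5 of 6 granule cell markers were quantified, with 2 called higher and 2 lower. Neurod1 and Neurod2, transcription factors of granule cells, were higher by 1.16 and 1.11 (limma adjusted p = 0.00483 and 0.00643). C1ql2, a secreted synaptic protein, and Dsp, a protein of cell junctions, were lower, at differences of −1.23 and −1.24 (limma adjusted p = 0.00996 and 0.00664), and Calb1 was not called (−0.28, limma adjusted p = 0.376). The log2 of the summed markers of neurons lay between 8.87 and 9.24 in COS and between 8.91 and 9.37 in CES, with 2 of 8 quantified genes called higher and 1 lower. The 7 microglial markers summed to between 7.49 and 8.04 in COS and between 5.94 and 7.16 in CES, with 5 called lower. The 7 astrocyte markers went from between 8.36 and 8.54 to between 7.41 and 8.14, with 2 called higher and 2 lower, so the sum does not stand for the list, whose median difference was −0.07. Vim fell by 2.76, whereas Gja1 and Aldh1l1 were higher by 1.42 and 1.23. The 7 interneuron markers went from between 8.80 and 9.36 to between 7.76 and 8.65, with 3 called lower. These were Npy, Sst and Vip, at differences of −1.91, −1.61 and −1.06. Gad1 and Gad2 (−0.57 and −0.58) were not called, nor were Pvalb and Cck, which went the other way (0.51 and 0.32). This sum does not stand for its list either. The 3 markers of CA1 pyramidal cells, neurons of the neighbouring hippocampal field, summed to between 2.13 and 2.57 in COS and between 2.85 and 4.24 in CES, with all 3 called higher. One of them, Fibcd1, was well above background in 0 COS rats and 2 CES rats, and its groups overlapped. None of the quantified markers of mossy cells, oligodendrocytes and choroid plexus was called, and 2 of 4 endothelial markers were lower. A sum weights each gene by the brightness of its probe. With common-spot scaling the counts were 4 higher and 0 lower for neurons, 2 and 0 for granule cells, 0 and 1 for microglia, 2 and 0 for astrocytes, 2 and 2 for interneurons and 3 and 0 for CA1 pyramidal cells. As scaled here, the sums did not overlap between groups for microglia, astrocytes, interneurons and CA1 pyramidal cells. Among all single genes, 1.60% did not overlap with CES above and 19.8% with CES below. The part of these cell types in the differences of Shank3, Dlg1 and Homer3 and of the partner genes was not tested.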

How the data were processed

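RNA of 8 rats (4 COS, 4 CES) was hybridized to 4 2-colour Agilent arrays. The authors deposited, per channel, foreground and background intensity per spot from Agilent Feature Extraction 10.7.3.1, and a table of log2 values that differ from the scanner signal by a constant per channel. Groups, replicate numbers and dyes came from the sample records. A spot was valid with a foreground at least 2 times background, as the methods state. The background median was subtracted from the mean signal, each channel was scaled to the median of its valid spots, and spots valid in all 8 rats were averaged per gene before taking log2. Values marked as outliers by the scanner software (on 1348 such spots) were set missing in that rat, or the spot dropped where the gene had others, and genes with under 3 values in a group were left out. CES and COS were compared by limma 3.58.1 (R 4.3.3, statmod 1.5.0), two-sided, with the dye as a fixed term, the array as a random block and Benjamini-Hochberg adjustment. Each array held rats of 1 group only, so differences between arrays are part of the group difference. The fitted correlation within an array was −0.010, so rats that shared an array were treated nearly as independent. The code was also run on simulated data with far fewer changed genes and a larger array effect. That run does not bear on these calls. The median standard error of a difference was 0.20, and the number of arrays limits the precision. Nothing says that replicates came from separate litters or days. Member names matched RefSeq symbols through their accession for all 12 probes. All members and every called gene of each partner list, up to 3 rises and 3 falls, were eligible to be named, and some of these are not reported here. Members and lists were chosen with earlier results of these data known. Alternatives covered background correction, processed signal, normalization, filters, model terms, probe choice, naming, the methods' t-test, the log2 table and leaving out each rat. Figures were drawn with matplotlib 3.10.9 in Python 3.11.15.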

Additional observations from a re-analysis of the deposited data

How the results depend on the processing

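The direction of Shank3, Dlg1, Dlg2, Homer2, Homer3, Dlg4 and Dlgap1 was the same under all 24 alternatives, whereas the calls were not. Alternatives in model terms left most differences as they were, so they could hardly change a direction. Shank3 was called under 18 of 24 and Dlg1 and Homer3 under 11 of 24 each. The cause of the changes was not tested. Members called higher numbered 0 with normexp, the processed signal, no filter or the methods' t-test and 3 with loess, quantile normalization, scaling over common spots, the mark for well above background or the log2 table. Members called lower numbered 0 with normexp, loess, quantile normalization, scaling over common spots, no filter, a foreground of 3 times background, the mark for well above background, the log2 table or the methods' t-test. Without 1 rat they ran from 0 to 1 higher and from 0 to 3 lower.

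Genes called higher numbered 133 with normexp, 2989 with loess, 3015 with quantile normalization, 3286 with scaling over common spots, 2168 with the mark for well above background and 3221 in the log2 table. Genes called lower numbered 486, 1890, 2205, 1700, 876 and 1919 in the same order, and 2813 with a foreground of 3 times background. With no filter limma called 0 in each direction, and the methods' t-test 0 after adjustment, against 5969 before adjustment (p under 0.05) and 9508 by limma before adjustment. Without 1 rat, they ran from 259 (COS replicate 3) to 1821 (CES replicate 2) higher and from 1014 (COS replicate 3) to 7009 (CES replicate 3) lower. At least 1 of these counts moved by over 1.5 times without any COS rat and without CES replicate 1 or 2.

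The members' median difference was 0.43 with loess, 0.44 with quantile normalization, 0.43 with scaling over common spots, 0.38 with no filter, 0.54 with the mark for well above background and 0.41 in the log2 table, and −0.051 to 0.22 without 1 rat. That of all genes was then 0.055, 0.058, 0.15, 0.11, 0.15 and 0.12, and relative to it the members' median stayed above 0 throughout. Dlg3 was 0.012 with normexp, 0.068 with the processed signal, 0.33 with loess, 0.35 with quantile normalization, 0.33 with scaling over common spots, 0.28 with no filter, 0.049 with a foreground of 3 times background, 0.38 with the mark for well above background and 0.30 in the log2 table. Shank2 was 0.024, 0.017, 0.30, 0.31, 0.33, 0.28, 0.21, 0.55 and 0.31 in the same order and 0.10 with the brightest probe. Without 1 rat, Dlg3 ran from −0.14 to 0.047 and Shank2 from −0.17 to 0.10. Shank1 was −0.057 with the processed signal.

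Same-numbered rats shared a dye, and with dye and group taken out their deviations did not correlate (r of −0.06 and −0.04), so the numbers were not taken as pairs. With the replicate number as a block, 1052 genes were called higher and 6070 lower, 1 member higher and 3 lower, the added member being Dlg2 (difference −0.50, limma adjusted p = 0.0364).

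Keeping the spots marked as outliers was chosen after seeing the data and left the members' calls at 1 higher and 2 lower. The dimmer Shank2 probe had no value with a foreground of 3 times background or the mark for well above background. The groups hold 4 rats each, on 4 arrays of a single slide.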
